A study of Mus musculus with 2 samples.

Results

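The genes described here are 31 mouse genes that make cholesterol, sense it, take it up, export it or store it as ester. They were taken by symbol from a fixed list, matched to the deposited Ensembl identifiers through the GENCODE annotation, and make up 31 of the 42462 annotated genes in the tables. The tissue was intestine dissected from healthy embryos of mouse strain B6NCrl at embryonic day 16.5, with male and female embryos pooled and no genetic alteration or treatment named in the labels. The 2 total RNA-seq libraries, replicate 1 and replicate 2, form 1 group. Each started from 10 ng of RNA above 200 nucleotides in size, with spike-in RNAs added. The labels give 41 embryos for replicate 2, describe replicate 1 as pooled without a number, and list separate tissue samples with the same donor identifier. The whole organ was used, so the values average over epithelium, muscle, connective tissue, nerve and blood cells, and fewer cells of a type cannot be told apart from less RNA per cell. With 1 group there was no contrast between conditions, and the comparisons below are of genes with each other and of the 2 libraries, with SDs over those libraries and no p-values.

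Cholesterol is built from acetyl-CoA through mevalonate, isoprenoid phosphates, squalene and lanosterol. When sterols in the endoplasmic reticulum are low, SCAP carries the SREBP transcription factors to the Golgi, where they are cut and released to activate the synthesis genes at sterol regulatory elements, usually beside CCAAT or GC boxes. INSIG proteins hold SCAP back when sterols are plentiful. In the adult gut, enterocytes also absorb cholesterol through NPC1L1, return part of it to the lumen through the ABCG5 and ABCG8 half-transporters, esterify it with SOAT2 and pass it on through ABCA1 and lipoproteins.

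Promoter windows running from 250 bases before to 50 bases after the start, from RefSeq on GRCm38.p6 (mm10), matched 25 of the 31 genes and gave 34 windows, because some genes have several starts. Fdft1, Fdps, Npc1, Scarb1, Soat2 and Sqle were not matched. Both strands were searched for a sterol regulatory element (TCACNCCAC), a CCAAT box (CCAAT), a GC box (GGGCGG) and an E-box (CACGTG), and overlapping matches between motifs were allowed. The stretches below are those that carry the contrasts described later: a synthesis gene with the sterol element, a synthesis gene with many CCAAT boxes, the brake Insig1, the internal start of Srebf1, the absorptive transporter Npc1l1, and the stretch between the Abcg5 start and the nearer of the 2 Abcg8 starts. Capitals mark motif matches on either strand, so that ATTGG is CCAAT and CCGCCC is GGGCGG on the other strand, and every sequence reads 5′ to 3′ along the strand given.
Hmgcs1, chr13:119690151-119690350, + strand: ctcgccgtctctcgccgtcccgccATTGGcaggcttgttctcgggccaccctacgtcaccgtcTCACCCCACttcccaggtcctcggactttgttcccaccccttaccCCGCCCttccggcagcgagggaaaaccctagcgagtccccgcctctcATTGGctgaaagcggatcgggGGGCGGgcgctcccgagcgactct
Mvk, chr5:114444019-114444268, + strand: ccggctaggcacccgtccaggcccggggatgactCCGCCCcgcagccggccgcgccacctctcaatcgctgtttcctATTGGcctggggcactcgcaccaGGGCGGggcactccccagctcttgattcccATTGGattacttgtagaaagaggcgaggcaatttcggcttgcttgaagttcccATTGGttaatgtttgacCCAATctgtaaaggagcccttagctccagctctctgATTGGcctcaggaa
Insig1, chr5:28071163-28071362, + strand: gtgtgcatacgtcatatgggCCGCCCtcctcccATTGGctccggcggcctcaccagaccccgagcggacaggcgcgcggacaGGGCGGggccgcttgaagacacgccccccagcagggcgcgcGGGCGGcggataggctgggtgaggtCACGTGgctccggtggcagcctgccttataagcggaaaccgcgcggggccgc
Srebf1 internal start, chr11:60210472-60210671, - strand: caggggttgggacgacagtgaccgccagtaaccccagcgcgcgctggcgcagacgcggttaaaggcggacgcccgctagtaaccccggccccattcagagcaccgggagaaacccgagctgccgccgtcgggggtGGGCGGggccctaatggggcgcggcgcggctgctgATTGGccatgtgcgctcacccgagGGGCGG
Npc1l1, chr11:6230246-6230445, - strand: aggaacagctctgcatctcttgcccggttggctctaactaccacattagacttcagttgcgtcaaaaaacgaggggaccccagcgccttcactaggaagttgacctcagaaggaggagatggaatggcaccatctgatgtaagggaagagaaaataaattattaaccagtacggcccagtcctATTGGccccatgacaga
Between Abcg5 and the nearer Abcg8 start, chr17:84683012-84683120, + strand: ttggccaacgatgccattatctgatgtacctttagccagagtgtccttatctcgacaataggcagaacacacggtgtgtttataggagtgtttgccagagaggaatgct

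The promoter windows of the listed genes, those of synthesis genes most of all, held CCAAT and GC boxes more often than all RefSeq windows. The RefSeq windows were not matched for the level of their genes. A CCAAT box stood in 14 of 18 synthesis windows (77.8%), against 37.4% of all 32851 RefSeq windows, and a GC box in 15 of 18 (83.3%), against 35.7% of all windows. Over all 34 windows of the 31-gene list, 23 held a CCAAT box (67.6%), 25 a GC box (73.5%) and 7 an E-box (20.6%, against 7.15% of all windows). The strict sterol element was found in 1 window, that of Hmgcs1, at bases -137 to -129 from the start, against 1.24% of all windows. The Mvk window held 5 CCAAT boxes, the most printed here, and 2 GC boxes. The printed Insig1 stretch held 1 CCAAT box, 3 GC boxes and 1 E-box, the one above the internal Srebf1 start held 1 CCAAT box and 2 GC boxes, and the Npc1l1 one held 1 CCAAT box and no other match. The 109 bases between the Abcg5 start and the nearer Abcg8 start held none of the 4 motifs, but a CCAAT box lay directly beside them, at bases 1 to 5 of Abcg5, which are bases -114 to -110 of that Abcg8 window. The same Abcg8 window held another CCAAT box at bases -175 to -171, and the window of the other Abcg8 start held no match. These are matches to letters in a short window and say nothing about binding.

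**Figure D1:**
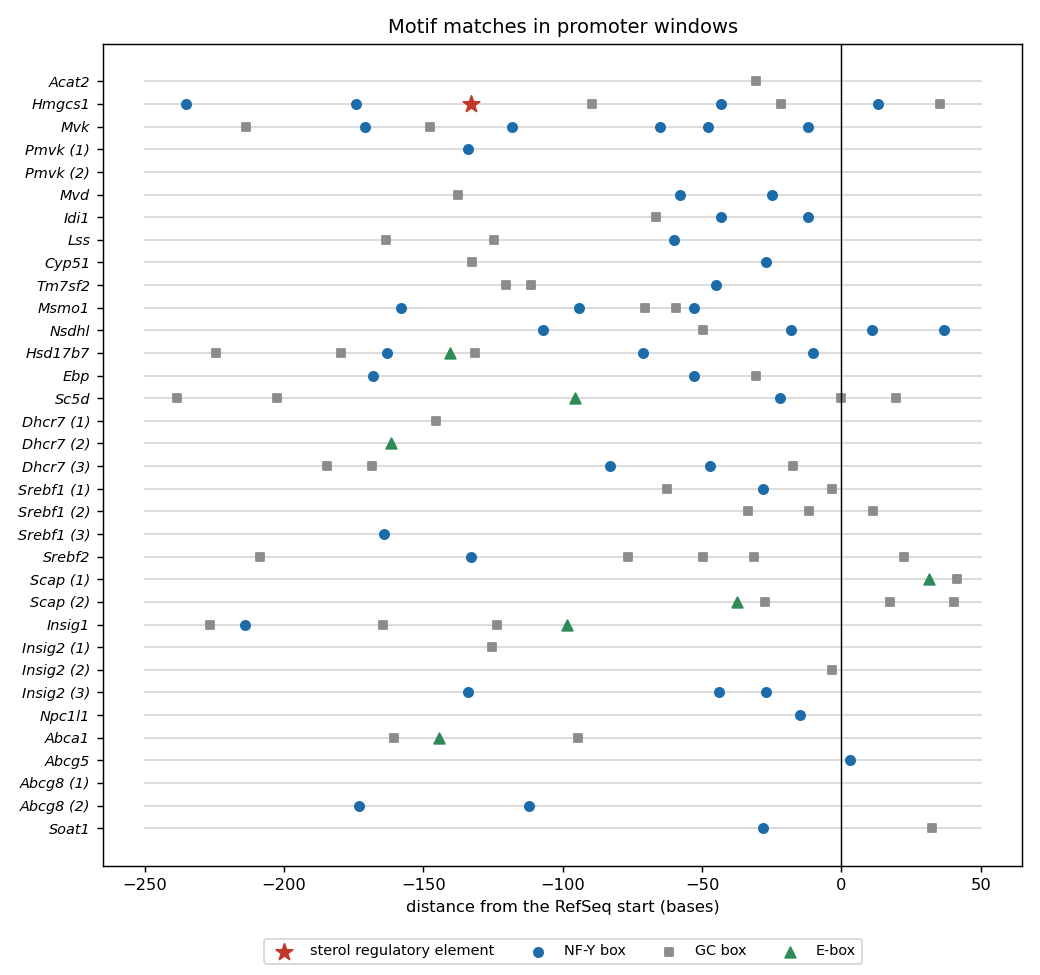
Motif matches in the 34 promoter windows of 25 genes, by distance from the RefSeq start in bases (x axis), with genes ordered by pathway step and several starts of a gene numbered. CCAAT boxes (circles, labelled by NF-Y, the factor that binds them) and GC boxes (squares) fill most synthesis windows, and the 1 strict sterol element (star) lies in Hmgcs1.

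The libraries held 42040766 estimated read counts in replicate 1 and 41480301 in replicate 2, of which the 31 genes took 0.444% in replicate 1 and 0.466% in replicate 2. Of the marker genes of intestinal epithelium, all 8 for enterocytes and all 7 general ones had at least 1 TPM (reads per effective transcript length, scaled to a fixed total) in both libraries. So did all 8 liver, all 6 erythroid and all 6 macrophage markers, and 62% of protein-coding genes. Passing 1 TPM therefore does not single out intestine. The libraries were not alike in makeup. All 8 enterocyte markers were higher in replicate 2, with summed levels of 7333 TPM in replicate 1 and 10879 TPM in replicate 2, while the 7 epithelial markers summed to 6338 TPM in replicate 1 and 6425 TPM in replicate 2. The 5 pancreatic acinar markers with a mean of at least 1 TPM were also higher in replicate 2, and the sixth, Pnlip, was at 0.32 TPM in replicate 1 and 0.30 TPM in replicate 2. Genes of adrenal or gonadal steroid synthesis ran the other way, summing to 61.5 TPM in replicate 1 and 6.97 TPM in replicate 2, as did 7 of 8 liver markers and all 6 erythroid markers.

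All 31 genes were detected, meaning at least 1 TPM in both libraries, as were 62% of protein-coding genes. At least 10 TPM was reached by 27 of the 31 (38.4% of protein-coding genes), at least 50 TPM by 20 (14.4%) and at least 100 TPM by 8 (7.47%). The 18 synthesis genes made up most of the upper range, with 18 of 18 at 10 TPM or more, 15 at 50 or more and 7 at 100 or more. Their median was 86.5 TPM in replicate 1 and 93.1 TPM in replicate 2, a mean of 89.8 ± 4.71 (SD, n = 2), beside 16.5 TPM in replicate 1 and 16.7 TPM in replicate 2 for all protein-coding genes with a mean of at least 1 TPM. On this per-length scale, 17 of the 18 lay at or above the 80th percentile of protein-coding genes.

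**Figure D2:**
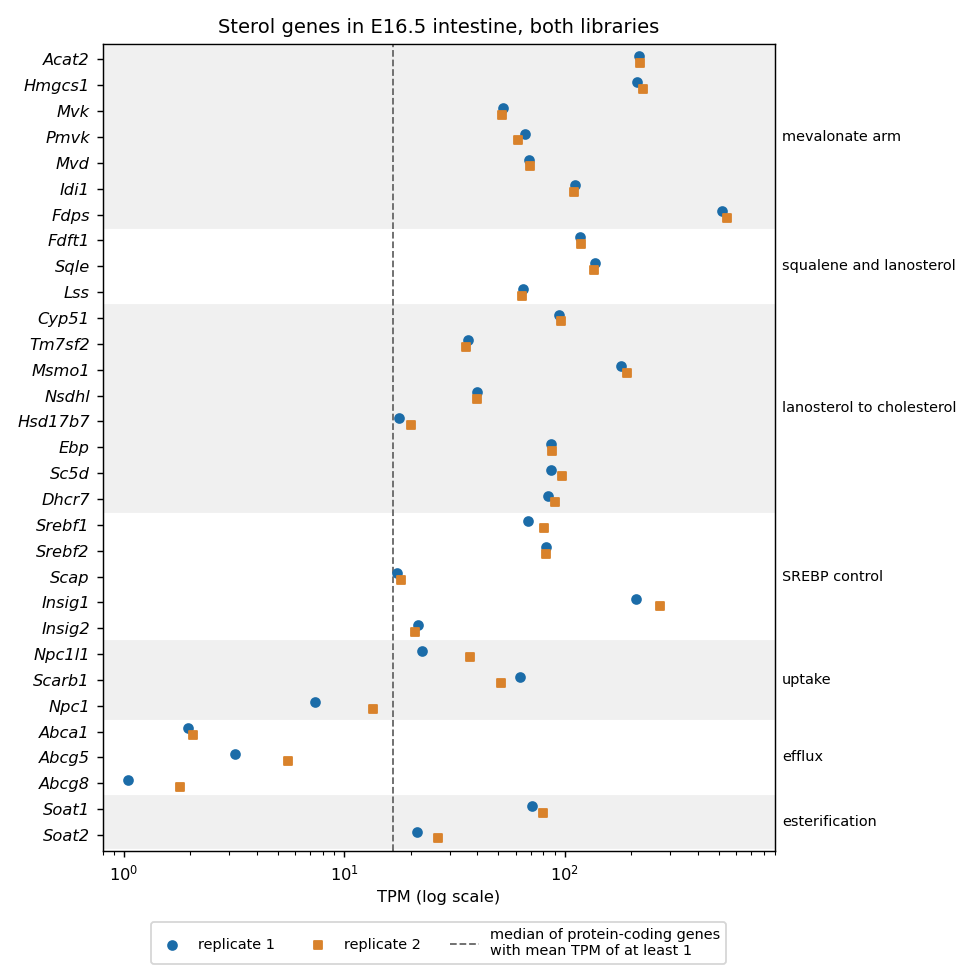
Level of each of the 31 genes in TPM (x axis, log scale) in replicate 1 (circles) and replicate 2 (squares), grouped by pathway step, with the median of protein-coding genes of at least 1 mean TPM as a dashed line. The 18 synthesis genes lie above that line in both libraries, with Fdps highest, and the 3 efflux genes lie below it.

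The mevalonate arm turns acetyl-CoA into farnesyl diphosphate. Its first step, the joining of acetyl-CoA units by the cytosolic thiolase Acat2, had 216 TPM in replicate 1 and 220 TPM in replicate 2. Hmgcs1, the cytosolic HMG-CoA synthase (chr13:119690379-119708260, + strand), had 212 TPM in replicate 1 and 227 TPM in replicate 2. The middle of the arm was lower and equally steady. The mevalonate kinase Mvk, at 52.3 TPM in replicate 1 and 51.7 TPM in replicate 2, was the lowest of the 7 genes. The phosphomevalonate kinase Pmvk had 65.8 TPM in replicate 1 and 61.6 TPM in replicate 2. The decarboxylase Mvd had 68.5 TPM in replicate 1 and 69.5 TPM in replicate 2. Levels were higher again after the decarboxylase. The isomerase Idi1 had 111 TPM in replicate 1 and 109.7 TPM in replicate 2. Fdps, farnesyl diphosphate synthase (chr3:89093588-89101959, - strand), had 515 TPM in replicate 1 and 545 TPM in replicate 2, the highest level of the 31 genes. It alone made up 23.6% of the summed synthesis TPM in replicate 1 and 24.1% in replicate 2, and stood at the 98.8th percentile of protein-coding genes. Farnesyl diphosphate feeds isoprenoids and protein prenylation as well as sterols.

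The next 3 enzymes commit farnesyl diphosphate to sterols. Squalene synthase, Fdft1, had 118 TPM in both libraries and lay 4.49-fold below Fdps (log2 ratio -2.17 ± 0.05, SD, n = 2). Squalene epoxidase, Sqle, had 137 TPM in replicate 1 and 136 TPM in replicate 2. Lanosterol synthase, Lss, had 64.7 TPM in replicate 1 and 63.7 TPM in replicate 2, so that Sqle stood 2.12-fold above the enzyme that follows it (log2 ratio 1.09 ± 0.003). Without transcripts under 600 nucleotides, which hold part of the Lss TPM, that log2 ratio was 1.70 ± 0.07. Exons of Fdft1 share 774 bases with Ctsb on the opposite strand, a gene at 307 TPM in replicate 1 and 349 TPM in replicate 2. The labels do not say that strand was kept, so reads in shared bases cannot be told apart by strand.

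The 8 genes of the steps from lanosterol to cholesterol ranged in level from Hsd17b7, the lowest, to Msmo1, the highest. The demethylase Cyp51 had 93.7 TPM in replicate 1 and 96.2 TPM in replicate 2, and the sterol reductase Tm7sf2 had 36.4 TPM in replicate 1 and 35.5 TPM in replicate 2. Lbr, a nuclear membrane protein with the same reductase activity, was 3.0-fold higher than Tm7sf2 (log2 ratio of Tm7sf2 over Lbr -1.59 ± 0.03), at 111 TPM in replicate 1 and 105 TPM in replicate 2. The genes that remove the methyl groups at carbon 4 were unequal. The oxidase Msmo1 had 179.7 TPM in replicate 1 and 192 TPM in replicate 2. The X-linked dehydrogenase Nsdhl had 39.95 TPM in replicate 1 and 39.9 TPM in replicate 2. The ketoreductase Hsd17b7 had 17.8 TPM in replicate 1 and 20.1 TPM in replicate 2, the lowest of the 18 synthesis genes, and lay 2.11-fold below Nsdhl (log2 ratio of Nsdhl over Hsd17b7 1.08 ± 0.12). The last 3 enzymes had like levels in TPM over all their transcripts. The isomerase Ebp had 86.4 TPM in replicate 1 and 87.1 TPM in replicate 2. The desaturase Sc5d had 86.5 TPM in replicate 1 and 96.8 TPM in replicate 2. The reductase Dhcr7, which makes cholesterol from its immediate precursor, had 83.6 TPM in replicate 1 and 90.1 TPM in replicate 2. The log2 ratios of Ebp over Sc5d (-0.08 ± 0.11) and of Dhcr7 over Sc5d (-0.08 ± 0.04) did not pass 3 SDs, the criterion used for calling a pair apart. Ebp was called apart from Sc5d, and lower, with transcripts under 600 nucleotides left out (-0.70 ± 0.10, Ebp at 56.1 TPM in replicate 1 and 56.8 TPM in replicate 2) and in counts not divided by length (-1.11 ± 0.11).

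Among the control genes, the brake Insig1 exceeded its paralog, its partner and both SREBP genes. Insig1 (chr5:28071363-28078662, + strand), itself a known target of the SREBPs, had 211 TPM in replicate 1 and 269 TPM in replicate 2. Insig2, its paralog with the same SCAP-holding role, had 21.5 TPM in replicate 1 and 20.9 TPM in replicate 2. Insig1 was thus 11.2-fold above Insig2 (log2 ratio 3.49 ± 0.27, SD, n = 2) and 13.4-fold above Scap (3.74 ± 0.20). Scap, the escort protein gene, had 17.4 TPM in replicate 1 and 18.1 TPM in replicate 2, 4.61-fold below Srebf2 (log2 ratio of Scap over Srebf2 -2.21 ± 0.04). Srebf2, whose protein chiefly drives sterol genes, had 82.1 TPM in replicate 1 and 82.2 TPM in replicate 2. Srebf1, whose proteins chiefly drive fatty acid genes, had 68.1 TPM in replicate 1 and 80.3 TPM in replicate 2. The pair was not called apart in TPM (log2 ratio of Srebf2 over Srebf1 0.15 ± 0.17), but was with transcripts under 600 nucleotides left out (0.54 ± 0.17) and in counts not divided by length (0.87 ± 0.14).

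Uptake genes were of middle level and the efflux genes low. Npc1l1, the absorptive cholesterol transporter of the brush border (chr11:6211013-6230143, - strand), had 22.6 TPM in replicate 1 and 37.0 TPM in replicate 2. Scarb1, the scavenger receptor for high-density lipoprotein, had 62.4 TPM in replicate 1 and 51.2 TPM in replicate 2. Npc1, the lysosomal cholesterol exporter, had 7.38 TPM in replicate 1 and 13.5 TPM in replicate 2, and its lysosomal partner Npc2 had 75.9 TPM in replicate 1 and 79.6 TPM in replicate 2. The 3 exporters were the lowest of the 31 genes. Abca1, which loads cholesterol onto apolipoprotein A-I, had 1.96 TPM in replicate 1 and 2.05 TPM in replicate 2, and Scarb1 was 26.9-fold above it (log2 ratio 4.75 ± 0.25). Abcg5 had 3.20 TPM in replicate 1 and 5.57 TPM in replicate 2. Abcg8, whose protein works as a heterodimer with ABCG5, had 1.04 TPM in replicate 1 and 1.79 TPM in replicate 2, so the ratio of Abcg5 over Abcg8 was 2.95-fold and nearly equal in both libraries (log2 ratio 1.56 ± 0.04). These low levels rest on 204 estimated counts in replicate 1 and 342 in replicate 2 for Abcg5, and on 72 in replicate 1 and 127 in replicate 2 for Abcg8.

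Of the esterifying enzymes, Soat1, which is expressed in many tissues, had 71.3 TPM in replicate 1 and 79.3 TPM in replicate 2. Soat2, the form of enterocytes and liver, had 21.3 TPM in replicate 1 and 26.6 TPM in replicate 2. Soat2 was 3.15-fold below Soat1 (log2 ratio of Soat2 over Soat1 -1.65 ± 0.12). That log2 ratio was -1.29 ± 0.11 without transcripts under 600 nucleotides and -2.24 ± 0.13 in counts not divided by length. Of all 18 gene pairs formed, 14 were apart by 3 SDs in TPM and 15 in counts. The SD covers only the spread between 2 libraries, and no share over other gene pairs was computed. These counts therefore describe the listed pairs and show nothing particular to sterol genes.

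**Figure D3:**
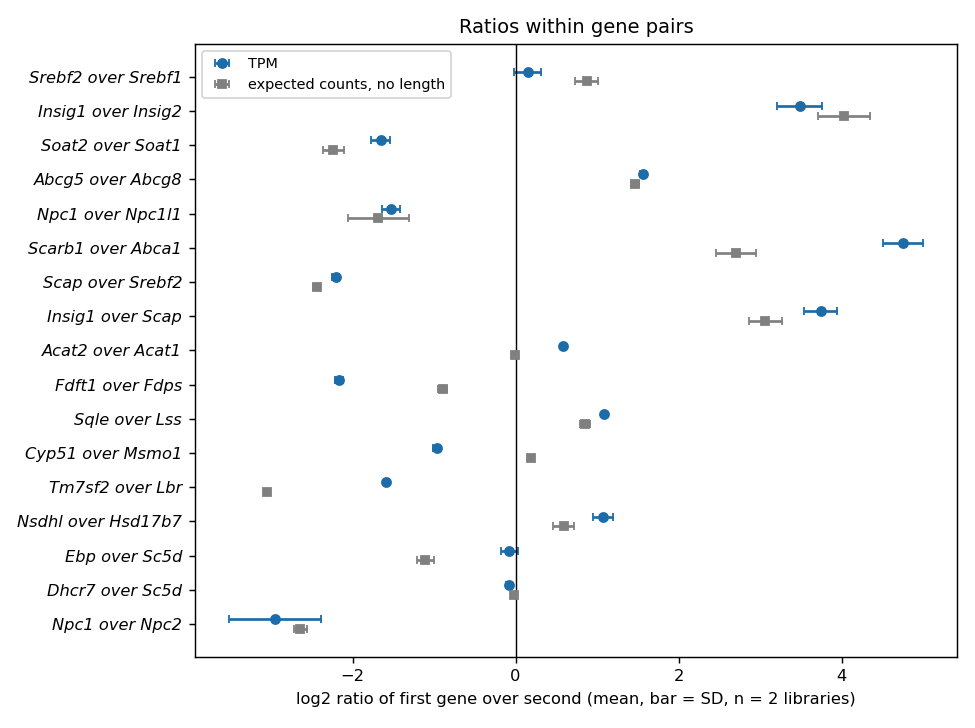
Log2 ratio of the first gene over the second in 17 of the 18 pairs (x axis), as mean and SD of 2 libraries, in TPM (circles) and in estimated counts not divided by length (squares). Scarb1 over Abca1 and the pairs with Insig1 lie farthest to the right, and the Cyp51 over Msmo1 ratio changes side between the scales.

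The pair ratios depended on length for some genes. Cyp51 over Msmo1 was -0.97 ± 0.04 on the log2 TPM scale and 0.19 in counts, where the longer Cyp51 collects more reads. Acat2 over the mitochondrial thiolase Acat1 was 0.58 ± 0.02 in TPM and -0.01 in counts. Scarb1 over Abca1 was 2.70 in counts, Fdft1 over Fdps -0.89 and Tm7sf2 over Lbr -3.05, each still called apart.

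Between the libraries, the synthesis genes were nearly equal and several genes of absorption and export were not. Relative to the median protein-coding gene, the log2 ratio of replicate 1 over replicate 2 had a median size of 0.04 over the 18 synthesis genes, beside 0.27 over the other 13 genes and 0.10 over the 8229 protein-coding genes with mean levels from 10 to 600 TPM, the range that holds the synthesis genes. Of the 18, 10 were within 0.05 of equality on the log2 scale and Hsd17b7 was farthest from it, at -0.19. Its 593-nucleotide transcript Hsd17b7-203 had 0.61 TPM in replicate 1 and 2.70 TPM in replicate 2. Without transcripts under 600 nucleotides the Hsd17b7 ratio was -0.03. The estimated counts of Hsd17b7 were 1518 in replicate 1 and 1667 in replicate 2. None of the 18 was 25% or more higher in either library (a log2 ratio of 0.32), a mark which 12.8% of 13509 protein-coding genes with a mean of at least 1 TPM passed and 6.93% of those from 10 to 600 TPM. With 1 library against 1, neither the counts nor these shares carry a test.

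In all, 6 of the 31 genes were at least 25% higher in one library than in the other, and each was higher in replicate 2, as were 8.2% of protein-coding genes with a mean of at least 1 TPM, while 4.6% were higher in replicate 1 by that much. They were Insig1, Npc1l1, Npc1, Abcg5, Abcg8 and Soat2, 6 of the 13 genes outside synthesis. Npc1l1 was 1.65-fold higher in replicate 2 (log2 ratio of replicate 1 over replicate 2, -0.72), Abcg5 1.74-fold (-0.80) and Abcg8 1.68-fold (-0.74). Insig1 was 1.29-fold higher (-0.36), and Soat2, just past the mark, 1.26-fold (-0.33). Soat2 did not pass with uncentred ratios, with a pseudocount of 1 or with no filter on low values. Just inside it lay Scarb1, 1.21-fold higher in replicate 1 (0.27), and Srebf1, 1.19-fold higher in replicate 2 (-0.25). The deposited TPM intervals of the libraries, which cover counting and read assignment only, lay apart for 11 of the 31 genes, 4 of them synthesis genes, and for 25.4% of protein-coding genes with a mean of at least 1 TPM. For Abcg8 the intervals ran from 0.789 to 1.28 TPM in replicate 1 and from 1.43 to 2.11 TPM in replicate 2.

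Markers of mature absorptive cells were also higher in replicate 2. The 8 enterocyte markers had a median log2 ratio of -0.49, a 1.41-fold higher level in replicate 2, and ranged from -0.84 for Apoa4 to -0.25 for Vil1, named after their values were seen. Apoa4, an enterocyte apolipoprotein, had 1477 TPM in replicate 1 and 2618 TPM in replicate 2. The 7 general epithelial markers had a median of -0.05 and none passed 25%. The pancreatic acinar markers with a mean of at least 1 TPM had a median of -0.50. Medians were 0.01 for smooth muscle, -0.11 for mesenchyme, -0.06 for macrophages, 0.19 for enteric neurons and 0.15 for proliferation, and no gene of those lists passed 25%. Scarb1, the gene on the other side, is abundant in steroid-making cells. Of the 7 steroidogenic markers, the 5 with a mean of at least 1 TPM were higher in replicate 1 (Star, Cyp11a1, Cyp11b1, Hsd3b1 and Cyp21a1). Cyp11a1, at 19.2 TPM in replicate 1 and 5.51 TPM in replicate 2, was the only 1 of the 7 detected in both. Nr5a1 had 1.15 TPM in replicate 1 and 0.1 TPM in replicate 2, and Cyp17a1 had 0.14 TPM in replicate 1 and 0.13 TPM in replicate 2. Liver also expresses Scarb1 and Soat2, and of its markers 7 of 8 were higher in replicate 1. The part of these cell types in the differences between the libraries was not tested.

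**Figure D4:**
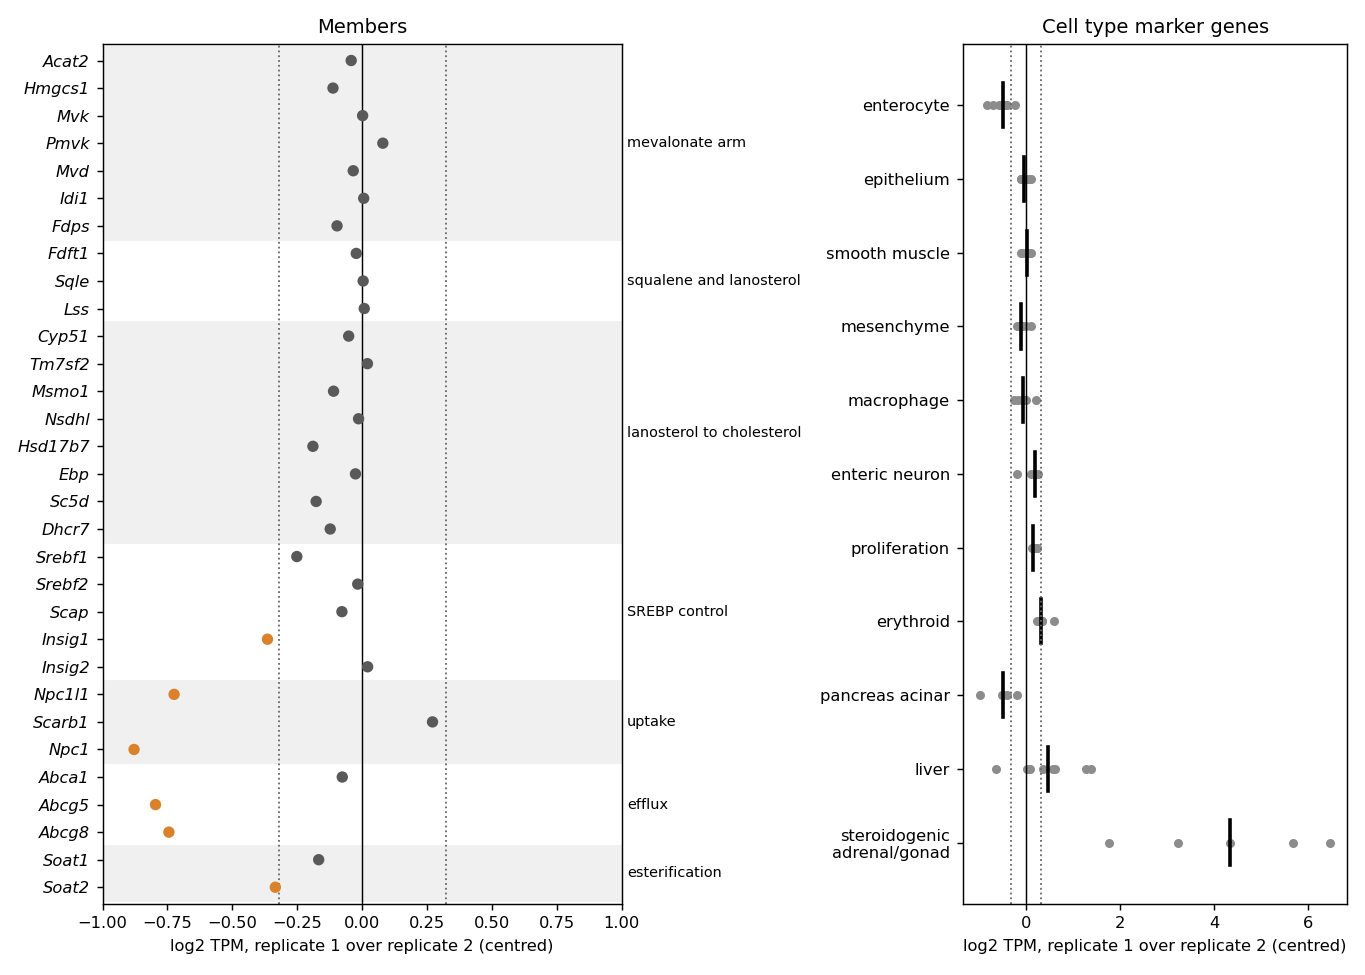
Log2 TPM of replicate 1 over replicate 2, relative to the median protein-coding gene, for the 31 genes (left) and for 11 lists of cell type markers with a mean of at least 1 TPM (right, points are genes and bars list medians), where dotted lines mark 25%. The 6 genes past the line (orange) are all higher in replicate 2, Npc1 only with its short transcript Npc1-203 included. The 8 enterocyte markers and the 5 pancreatic acinar markers shown lie on the same side, and the part of either cell type was not tested.

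The Npc1 difference lay in 1 short transcript. Npc1 as a gene was 1.84-fold higher in replicate 2 (-0.88), yet its estimated counts were 1087 in replicate 1 and 1199 in replicate 2. Its full-length protein-coding transcript, Npc1-201, had 6.44 TPM in replicate 1 and 7.26 TPM in replicate 2. The processed transcript Npc1-203, 352 nucleotides long, had 0.13 TPM in replicate 1 and 5.56 TPM in replicate 2, from 0.94 estimated counts in replicate 1 and 40.2 in replicate 2. Without transcripts under 600 nucleotides, a limit chosen after seeing these values, Npc1 was 1.10-fold higher in replicate 2, and the other 5 genes stayed past 25%. Counts scaled by edgeR, DESeq2 or spike-ins likewise left those 5 past it.

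Srebf1 gives rise to SREBP-1a from an upstream first exon and to SREBP-1c from an internal one. The transcript from the upstream start, Srebf1-201, had 35.3 TPM in replicate 1 and 38.1 TPM in replicate 2. The protein-coding transcript from the internal start printed above, Srebf1-207, had 10.9 TPM in replicate 1 and 15.2 TPM in replicate 2. The upstream form was thus 2.85-fold the internal one in TPM (log2 ratio 1.51 ± 0.25, SD, n = 2) and 3.88-fold in counts. Srebf1-207 is annotated to end at base 60200463, short of the end of Srebf1-201 at base 60199089. Reads from those last bases cannot be assigned to Srebf1-207, so both ratios are uncertain to that extent. The protein-coding Srebf1-203 starts further inside and shares the end of Srebf1-201. It had 4.25 TPM in replicate 1 and 5.34 TPM in replicate 2. The upstream start took 51.8% of Srebf1 TPM in replicate 1 and 47.5% in replicate 2, and 72.5% of its counts in replicate 1 and 68.0% in replicate 2. Another form, the 367-nucleotide Srebf1-204, took 20.5% of the TPM in replicate 1 and 20.4% in replicate 2, but 1.83% of the counts in replicate 1 and 1.87% in replicate 2.

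**Figure D5:**
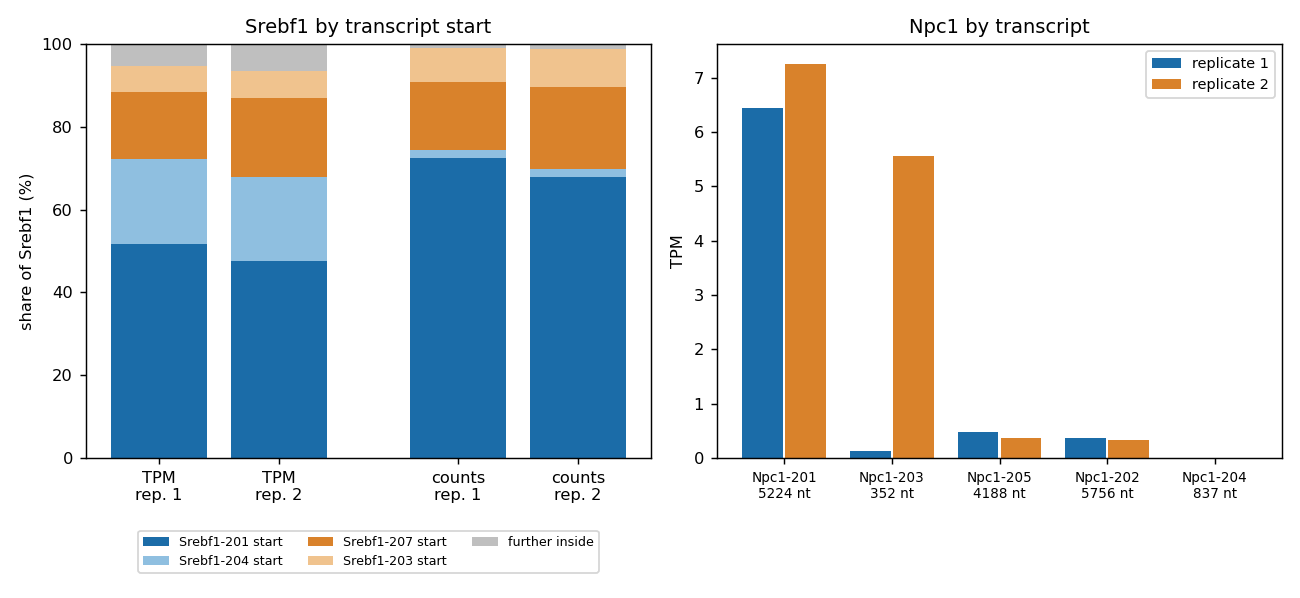
Left, share of Srebf1 (%) by transcript start in TPM and in estimated counts, with replicate 1 left of replicate 2. Right, TPM of the 5 Npc1 transcripts in both libraries with their lengths, where the 352-nucleotide Npc1-203 is near 0 in replicate 1 and at 5.56 TPM in replicate 2.

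Of the 31 genes, 23 have more than 1 annotated transcript, and in all 23 the same transcript led in both libraries, as it did in 92% of the 9808 protein-coding genes with several transcripts and a mean of at least 1 TPM. All but 0.466% of Insig2 TPM in replicate 1 and all of it in replicate 2 came from the downstream group of starts, and the 2 transcripts from the upstream group were listed at 0 in both. Msmo1 gave 31.3% of its TPM in replicate 1 and 37.3% in replicate 2 to the processed transcript Msmo1-206. Ebp gave 41.0% in replicate 1 and 41.6% in replicate 2 to full-length Ebp-201, with most of the rest in the 526-nucleotide Ebp-203 and a retained-intron form. For Lss, transcripts under 600 nucleotides held 37.2% of TPM in replicate 1 and 32.3% in replicate 2, but 3.49% of counts in replicate 1 and 2.84% in replicate 2. The leading Abcg8 transcript, Abcg8-202, begins inside Abcg5, with which Abcg8 shares 82 exon bases on the opposite strand, and took 65.8% of the gene's TPM in replicate 1 and 44.9% in replicate 2. In all, 12 of the 31 genes share exon bases with another annotated gene, 10 of them on the opposite strand, and their levels are uncertain to that extent. Npc1 shares 511 bases with Rmc1 on the opposite strand, at 43.8 TPM in replicate 1 and 46.6 TPM in replicate 2. On the same strand, Tm7sf2 shares 532 bases with Vps51, at 61.2 TPM in replicate 1 and 59.6 TPM in replicate 2. Fdps shares 1124 same-strand bases with Gm43738, for which no level was listed.

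Genes of the wider pathway were read in the same way. Among the 9 other sterol and isoprenoid genes measured, Pdss2 was lowest, at 14.1 TPM in replicate 1 and 12.7 TPM in replicate 2. Among 10 SREBP processing partners, the vesicle coat gene Sec24a, named for having passed 25%, had 18.1 TPM in replicate 1 and 23.5 TPM in replicate 2. The highest of that list was the extraction ATPase Vcp, at 397 TPM in replicate 1 and 382 TPM in replicate 2. None of 8 liver X receptor genes, 11 sterol transport genes and 11 SREBP-1 fatty acid genes passed 25%. The liver X receptor Nr1h2 had 67.8 TPM in replicate 1 and 71.2 TPM in replicate 2, well above the receptor's efflux target Abca1. Lpcat3, the highest gene of the liver X receptor list, stood above Nr1h2, at 166.8 TPM in replicate 1 and 187.8 TPM in replicate 2. Among transport genes, Tmem97, which binds NPC1, was highest, at 194.7 TPM in replicate 1 and 211 TPM in replicate 2, and the oxysterol-binding Osbp was lowest, at 3.22 TPM in replicate 1 and 2.74 TPM in replicate 2. Of the fatty acid genes, the desaturase Scd2 led, at 386 TPM in replicate 1 and 472 TPM in replicate 2, and its paralog Scd1 was lowest, at 4.29 TPM in replicate 1 and 4.90 TPM in replicate 2.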

How the data were processed

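Total RNA was extracted with mirVana, per the labels' protocols, and sequenced as 2 libraries of 1 group. Per the file headers, the authors deposited estimated counts, TPM, FPKM, the percent of each transcript in its gene, and signal bounds of an interval around the posterior mean TPM, whose level is not given. The build is mm10, per the labels. The quantifier's name was not given in the sources used here. Shared reads were divided, so counts need not be whole (9 of the 31 genes were more than 0.005 from whole in a library). Identifiers were matched to GENCODE M21, and features with no gene name (spike-ins, numeric identifiers, retired identifiers) held 1.97% of counts in replicate 1 and 1.89% in replicate 2. Of the 10 other sterol and isoprenoid genes listed, Faxdc2 was not matched.

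Ratios between libraries used log2(TPM + 0.1), so they understate changes of low genes, and were centred on protein-coding genes with mean TPM of at least 1 (median removed, 0.01). A pair counted as apart if its ratio had 1 sign in both libraries and a mean beyond 3 SDs. With 2 libraries the smallest exact sign-flip p is 0.5, so no test was made. SDs cover the spread between 2 pools that share a donor identifier, and the deposited intervals cover counting error and read assignment. Size factors came from edgeR 4.0.16 and DESeq2 1.42.0 in R 4.3.3, both on counts rounded to whole numbers, and the rest from Python 3.11.15. Scripts were tested on simulated data. All 31 genes and each list's 3 highest and lowest genes could be named, but some are not reported here. The members and lists were chosen with earlier results of these data known.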

Additional observations from a re-analysis of the deposited data

How the results depend on the processing

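No paired analysis was possible because both libraries belong to 1 group. Detection held 29 to 31 of 31 genes under every setting tried, and 31 without either replicate. The median synthesis level was 86.5 to 93.1 TPM when 1 replicate was left out, 62.3 in FPKM and 104 in TPM rescaled over protein-coding genes. The FPKM value is in another unit, and rescaling raises every gene alike. The number of genes apart between libraries was 6, between 4 and 6 under the other settings, and 0 at a fold of 2, which 1.24% of protein-coding genes passed. It cannot be computed without a replicate, nor can agreement of the leading transcript, which held in 23 genes (20 with a mean of at least 10 TPM). Pairs apart numbered 14 to 16, each pair had the same sign in either library alone, and the log2 ratios of Acat2 over Acat1 (-0.0105) and Cyp51 over Msmo1 (0.19) reversed in counts not divided by length, where gene length enters the ratio. The number of synthesis genes higher in replicate 1 was 6 of 18 in centred TPM, 7 uncentred, 4 with TMM or DESeq2 factors and 2 with spike-ins, so the small directions within synthesis depend on scaling. Depth limits Abcg5 and Abcg8, with 342 counts or fewer per library. Leaving out transcripts under 600 nucleotides was chosen after seeing the data.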
